A study of Mus musculus with 12 samples.

Results

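Transcript levels of 10 genes that act in meiotic DNA break formation and recombination were examined in germ cells and somatic cells of the fetal mouse ovary. The genes were selected by name, and all 10 were found among the 54532 genes of the count table. Pregnant dams received dexamethasone (dex, a synthetic glucocorticoid receptor agonist) intraperitoneally at a dose of 10 µg for each g of their weight, or the saline vehicle, in 4 daily injections from embryonic day E12.5 through to E15.5, and female embryos were collected on the last day. All embryos carried the Tg(Pou5f1-EGFP)2Mnn reporter, in which regulatory sequence of Pou5f1 (OCT4) drives GFP in germ cells. Live ovarian cells, freed of mesonephros, were sorted into OCT4-GFP positive germ cells and an OCT4-GFP negative fraction that holds every other cell of the ovary, called somatic cells here. The 12 libraries form 4 groups of 3 replicates (germ saline, germ dex, somatic saline and somatic dex), and each library came from ovaries pooled over more than 1 independently dosed litter.

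Female germ cells enter meiotic prophase in the fetal ovary, and chromosomes are deliberately cut and repaired against their homologs during this stage. SPO11, a topoisomerase-like protein, makes the cuts, and MEI4, REC114 and ANKRD31 sit on the chromosome axis and are needed for the normal number, place or timing of breaks. PRDM9 methylates histones at its DNA motifs and so directs breaks to hotspots. DMC1, the recombinase of meiosis, coats the resected single-stranded ends and pairs them with the homolog, while MEIOB and SPATA22 form a complex that binds the same single-stranded DNA. TEX15 is needed for loading of recombinases in male meiosis, and TEX11, encoded on the X chromosome, acts in synapsis and crossover formation.

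On the GRCm38 build used by the count table, the break formation genes are Spo11 (ENSMUSG00000005883) on chromosome 2 at 172977700 to 172993576 (plus strand), Mei4 (ENSMUSG00000043289) on chromosome 9 at 81863670 to 82206007 (plus strand), Rec114 (ENSMUSG00000074269) on chromosome 9 at 58652850 to 58743964 (minus strand) and Ankrd31 (ENSMUSG00000109561) on chromosome 13 at 96748272 to 96910039 (plus strand). The hotspot gene is Prdm9 (ENSMUSG00000051977) on chromosome 17 at 15543079 to 15564354 (minus strand). The strand exchange genes are Dmc1 (ENSMUSG00000022429) on chromosome 15 at 79561497 to 79605109 (minus strand), Meiob (ENSMUSG00000024155) on chromosome 17 at 24804382 to 24839787 (plus strand) and Spata22 (ENSMUSG00000112920) on chromosome 11 at 73329741 to 73346044 (plus strand). The TEX genes are Tex15 (ENSMUSG00000009628) on chromosome 8 at 33516738 to 33585582 (plus strand) and Tex11 (ENSMUSG00000009670) on the X chromosome at 100838648 to 101059667 (minus strand). A count covers the exons of the whole gene.

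The promoters of the genes were examined for short motifs, because several germ cell genes are known to be held silent in somatic cells through E2F6 and activated at meiotic entry through STRA8 and MEIOSIN. RefSeq windows of 300 bases (250 before and 50 after a transcription start, GRCm38.p6) were matched for 6 of the 10 genes, with 2 windows for Prdm9 and thus 7 in all. No window was matched for Spo11, Meiob, Tex15 and Tex11. The E2F core TCCCGC, read on both strands, occurred in 5 of the 7 windows and in 4 of the 6 genes (Rec114, Spata22, Dmc1 and Prdm9), and in 19.98% of all 32851 windows of this length. The STRA8-type motif CNCCTCAG occurred only in Prdm9, with 2 matches in 1 window, and in 7.94% of all windows. The E-box CACGTG occurred only in Rec114, and in 7.15% of all windows. The palindromic glucocorticoid response element, AGAACA and TGTTCT with 3 bases between them, was in none of the 7 and in 3 of the 32851. The number of CpG dinucleotides had a median of 17 over the 7 windows (range 9 to 25), against a median of 7 over all windows. The E2F core itself holds a CpG, and its share over all windows was not matched for the number of CpGs. A match describes letters only and does not show that a protein binds there. The windows of Mei4 and Ankrd31 held no match of any of these motifs. Their saline somatic levels were 4.63% and 0.0494% of the saline germ mean. Those of the genes with an E2F core ran from 0.182% for Spata22 to 5.57% for Rec114. A link between the motifs and the somatic levels was not tested. The 4 windows below were chosen to show the window with the most CpGs, which holds 2 E2F cores (Spata22), the recombinase gene (Dmc1), the Prdm9 window with both kinds of match, and a window with none (Ankrd31, which had the lowest somatic level relative to germ cells). Capitals mark the E2F core on either strand and the STRA8-type matches, and in Prdm9 the first STRA8-type match overlaps the E2F core. The windows lie at chr11:73329491-73329790 (plus strand), chr15:79605060-79605359 (minus), chr17:15564305-15564604 (minus) and chr13:96748043-96748342 (plus), in this order, and each is written 5′ to 3′ on the strand of its gene.
Spata22: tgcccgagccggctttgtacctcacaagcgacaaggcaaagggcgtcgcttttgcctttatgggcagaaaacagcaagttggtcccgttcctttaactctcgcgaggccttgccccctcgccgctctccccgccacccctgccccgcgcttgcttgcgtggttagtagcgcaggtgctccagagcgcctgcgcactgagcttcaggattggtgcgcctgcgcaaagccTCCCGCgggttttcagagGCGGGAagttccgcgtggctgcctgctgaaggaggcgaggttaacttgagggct
Dmc1: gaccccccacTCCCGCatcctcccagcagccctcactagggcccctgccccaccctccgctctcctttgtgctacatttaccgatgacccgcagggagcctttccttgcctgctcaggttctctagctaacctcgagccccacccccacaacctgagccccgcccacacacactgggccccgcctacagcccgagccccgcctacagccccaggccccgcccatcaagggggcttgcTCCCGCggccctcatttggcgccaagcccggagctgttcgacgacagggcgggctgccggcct
Prdm9: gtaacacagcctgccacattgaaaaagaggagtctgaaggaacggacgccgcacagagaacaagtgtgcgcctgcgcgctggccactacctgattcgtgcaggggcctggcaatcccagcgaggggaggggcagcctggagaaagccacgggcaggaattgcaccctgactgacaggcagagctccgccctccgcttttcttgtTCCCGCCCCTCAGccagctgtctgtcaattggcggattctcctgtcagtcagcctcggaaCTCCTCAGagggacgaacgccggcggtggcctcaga
Ankrd31: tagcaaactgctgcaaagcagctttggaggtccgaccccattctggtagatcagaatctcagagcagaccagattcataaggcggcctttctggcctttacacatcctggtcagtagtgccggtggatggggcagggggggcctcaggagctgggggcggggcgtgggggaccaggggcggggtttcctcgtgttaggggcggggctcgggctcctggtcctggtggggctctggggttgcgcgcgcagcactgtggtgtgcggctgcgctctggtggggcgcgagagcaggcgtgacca

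The libraries held 14658503 to 17616664 counts in germ cells and 15161804 to 18245507 in somatic cells. Levels are given in CPM, the usual depth-scaled count after TMM scaling of library sizes, and the detection floor of 3 counts lies at 0.169 to 0.201 CPM. The sort was checked on marker genes. Ddx4, a germ cell RNA helicase, had 603 ± 17.3 CPM in the germ fraction after saline and 1.11 ± 0.562 CPM in the somatic fraction (SD, n = 3). Wnt4, a gene of pregranulosa cells, was at 3.35 ± 1.44 and 185 ± 6.33 CPM. Summed over 9 pregranulosa markers, the germ libraries held 2.22% to 8.90% of the saline somatic level, and over 8 stroma markers 0.539% to 1.14%. The shares were 3.38% to 7.74% for 5 macrophage markers, 0.694% to 1.19% for 3 perivascular markers and 0.112% to 0.527% for 3 erythroid markers. For 4 endothelium markers they were 16.2% to 21.5%, and 1 of these 4 genes was itself called higher in germ cells. Of 5 glucocorticoid targets, edgeR called 5 higher after dex in somatic cells (8.18% of all genes tested were called) and 2 in germ cells (Per1 and Zbtb16, with 0.208% of all genes called). The part of somatic transcripts, at the shares above, in the germ values of these 2 genes was not tested. Fkbp5 was not called in germ cells (adjusted p = 0.162 by edgeR), at 72.0, 84.9 and 86.5 CPM after saline and 94.3, 106 and 104 CPM after dex without overlap. In bulk RNA, fewer cells of a type and less RNA per cell cannot be told apart.

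The 10 genes spanned a wide range of levels in germ cells. On the scale of FPKM (fragments scaled to gene length and depth, so that genes can be compared), Tex15 stood first in the saline libraries at 152 ± 3.06 (SD, n = 3), above the range of every other gene of the group. Meiob (95.8 ± 3.95), Dmc1 (93.0 ± 13.05) and Tex11 (92.4 ± 1.39) followed, with ranges that overlapped from each gene to the next. Spata22 had the next mean, at 73.5 ± 9.19 FPKM. Its range, 62.9 to 79.4 FPKM, was below those of Meiob and Tex11 but overlapped with that of Dmc1, 77.9 to 100.6 FPKM. It also overlapped with that of Prdm9, at 57.9 ± 8.68 FPKM. Ankrd31 and Spo11, at 41.5 ± 1.33 and 39.4 ± 2.77 FPKM, also overlapped with each other. Rec114 and Mei4 stood apart at the low end, with 12.4 ± 0.992 and 1.11 ± 0.276 FPKM. Thus, in FPKM, the gene of the catalytic break protein was below those of the strand exchange proteins, and the axis-bound break factor gene Mei4 was the lowest. That scale divides by the length of all annotated exons (3921 bases for Spo11, 1274 for Spata22), and the transcripts in use were not tested. In CPM, which ignores length, Spo11 was above Spata22 in the saline germ libraries (141, 159 and 158 against 100.3, 79.8 and 97.7). Percentiles were taken among 30079 genes with any count in the saline germ libraries, a looser rule than the floor of 3 counts. Mei4 was at percentile 58.0 and Rec114 at 84.4, and the other 8 genes lay between percentiles 95.9 and 99.5.

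**Figure D1:**
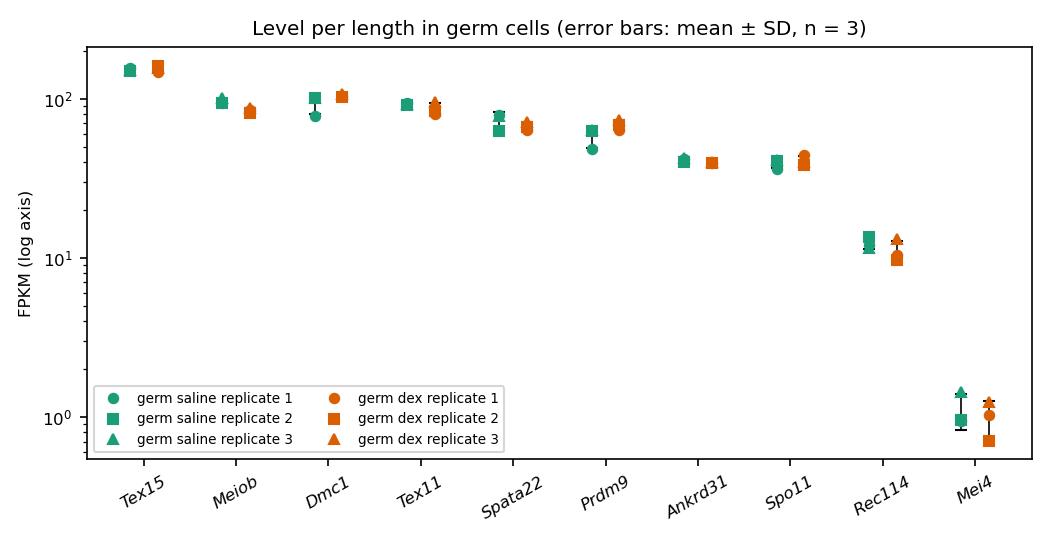
FPKM (log axis) of the 10 genes in the 3 saline and 3 dex germ cell libraries, ordered by the saline mean; symbols are replicates and error bars the mean ± SD. Tex15 lies above every other gene, 7 genes lie between 36.2 and 107 FPKM, and Rec114 and Mei4 lie apart below them.

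Germ cells were compared with somatic cells in the saline libraries to ask how restricted each gene was to the germline. All 10 genes were higher in germ cells (10 of 10 called by edgeR's quasi-likelihood test, where 43.1% of all 17941 genes tested were called higher), and for none of them did a germ library overlap a somatic one (43.6% of all genes tested were higher without overlap). The median log2 difference of the 10 was 6.73, against 0.00 over all genes tested. By the ratio of summed counts, scaled for depth, the differences ran from 17.8-fold for Rec114 (95% exact counting interval 13.1 to 24.9) to 2036-fold for Ankrd31 (935 to 5549). Intervals of this kind cover counting error only.

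**Figure D2:**
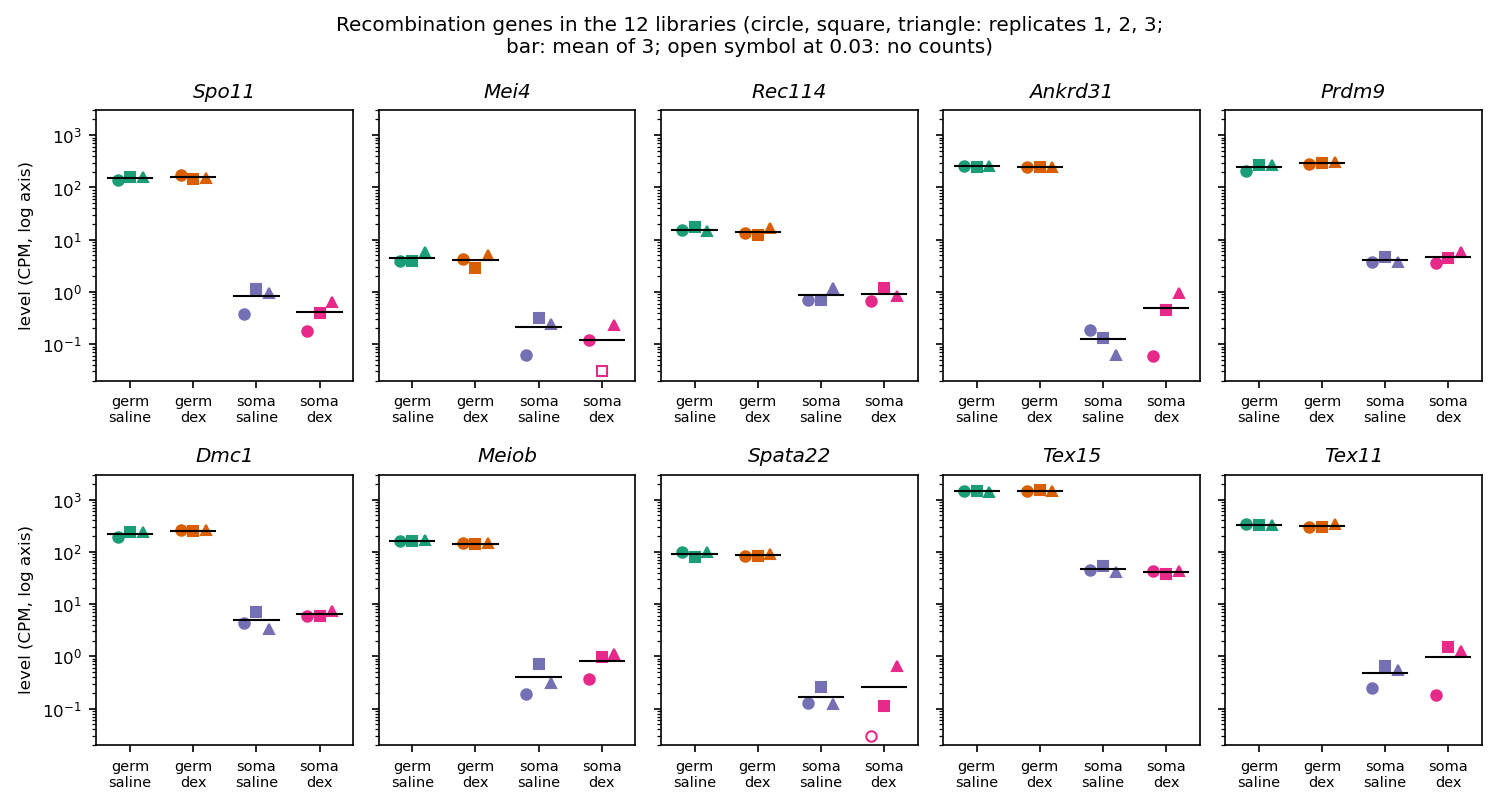
CPM (log axis) of each gene in the 12 libraries, by group; symbols are replicates, bars the mean of 3, and open symbols libraries with no counts. All germ libraries lie above all somatic libraries for every gene, and Tex15 lies between 37.8 and 52.9 CPM in the somatic libraries.

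Among the break formation genes, Spo11 was at 141, 159 and 158 CPM in the saline germ libraries and at 0.377, 1.16 and 0.971 CPM in the saline somatic libraries (replicates 1 to 3 here and below). The difference in log2 was 7.51 (adjusted p = 1.05e-14 by edgeR), and the ratio of summed counts was 183 (95% exact counting interval 135 to 257). Ankrd31 was at 258, 248 and 260 CPM in germ cells, and its somatic level rested on 3, 2 and 1 counts. Somatic libraries were thus at or below the floor of 3 counts, and the size of the difference is known only within the counting interval above.

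Mei4 and Rec114 stood nearer to their somatic levels. Mei4 was at 3.88, 3.91 and 5.77 CPM in germ cells, and had 1, 5 and 4 counts in the somatic libraries. Its ratio of summed counts was 21.8 (95% exact counting interval 11.6 to 46.0). Rec114 was at 15.3, 17.1 and 14.46 CPM in germ cells and 0.692, 0.709 and 1.21 CPM in somatic cells, which is a difference in log2 of 4.16 (SE 0.24, adjusted p = 3.03e-10 by edgeR). Rec114 shares 344 of its 1277 exonic bases with Nptn on the opposite strand, and the strand setting of the counting is not given in the sources used here. Nptn, a gene of a cell adhesion protein, was at 63.5 to 70.0 CPM in saline germ cells and 129 to 137 CPM in saline somatic cells, so the Rec114 values are uncertain, above all in somatic cells, and its part in them was not tested.

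Prdm9, the hotspot gene, was at 205, 267 and 269 CPM in germ cells and 3.71, 4.64 and 3.76 CPM in somatic cells. The somatic level was far above the floor in all 3 libraries, and the log2 difference was 5.95 (SE 0.14, adjusted p = 1.96e-14 by edgeR). In the strand exchange group, Dmc1 was at 188, 244 and 240 CPM in germ cells and 4.40, 7.09 and 3.40 CPM in somatic cells, which is a difference in log2 of 5.51 (SE 0.18, adjusted p = 5.09e-13 by edgeR). The genes of the single-strand binding pair were lower outside the germline. Meiob was at 158, 159 and 168 CPM in germ cells and 0.189, 0.709 and 0.303 CPM in somatic cells, which is a difference in log2 of 8.65 (adjusted p = 3.26e-15 by edgeR). The ratio of summed counts of Meiob was 407 (95% exact counting interval 261 to 677). Spata22 was at 100.3, 79.8 and 97.7 CPM in germ cells, and its 3 somatic libraries held 2, 4 and 2 counts. This gave a ratio of summed counts of 553 (95% exact counting interval 280 to 1282). Spata22 shares 1025 of its 1274 exonic bases with Gm49340 on the same strand, a gene listed at 0 counts in all 12 libraries, so its values carry the uncertainty of that overlap.

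The TEX genes lay far apart. Tex11 was at 337, 328 and 330 CPM in germ cells and 0.252, 0.645 and 0.546 CPM in somatic cells, which is a difference in log2 of 9.42 (adjusted p = 9.87e-16 by edgeR). The ratio of summed counts of Tex11 was 690 (95% exact counting interval 460 to 1088). Tex15 was at 1479, 1429 and 1421 CPM in germ cells and at 45.8, 52.9 and 41.3 CPM in somatic cells, which is a difference in log2 of 4.96 (SE 0.10, adjusted p = 4.37e-15 by edgeR). Its somatic level rested on 681 to 820 counts per library. Per length, Tex15 was at 4.17 to 5.32 FPKM in the saline somatic libraries, above the 1.35 to 2.82 FPKM of Dmc1, the next of the 10 genes there. Which cells of the sorted fraction carry the Tex15 transcripts was not tested.

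The somatic level of each gene was set beside that of germ cell markers in the same libraries, as a percentage of its mean in saline germ cells. Summed over 13 germ cell markers, the saline somatic libraries held 0.427% ± 0.0653 (SD, n = 3; range 0.388% to 0.503%) of the germ level. Of the 13, Dnd1 and Nanos3 were not specific to germ cells here, with somatic levels of 165% and 91.4%. Both were low in the saline germ libraries as well, at 27 to 37 counts for Dnd1 and 6 to 10 for Nanos3. Their percentages are thus ratios of low values. Pou5f1 and Dppa3 had no counts in some libraries. Over the 9 markers with at least 100 CPM in germ cells, the percentage had a median of 0.300% and ran from 0.109% for Dazl to 1.69% for Tdrd1. Ankrd31 (0.0494%), Tex11 (0.145%), Spata22 (0.182%), Meiob (0.248%) and Spo11 (0.547%) lay below or inside that range. Prdm9, at 1.63% ± 0.212, lay just inside its upper end. Dmc1 (2.22% ± 0.853), Tex15 (3.23% ± 0.404), Mei4 (4.63% ± 2.94) and Rec114 (5.57% ± 1.89) had means above all 9 markers (SD, n = 3), although 2 libraries of Dmc1 and 1 of Mei4 fell within the range of Tdrd1, 0.940% to 2.30%. The lowest library of Tex15, at 2.86%, and that of Rec114, at 4.43%, did not. The 9 markers were kept by their germ level, which leaves out Dnd1 and Nanos3, whose percentages were above those of all 10 genes. Mei4 (3.88 to 5.77 CPM in saline germ cells) and Rec114 (14.46 to 17.1 CPM) were themselves below 100 CPM. The 9 markers are thus not matched to these genes in level.

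**Figure D3:**
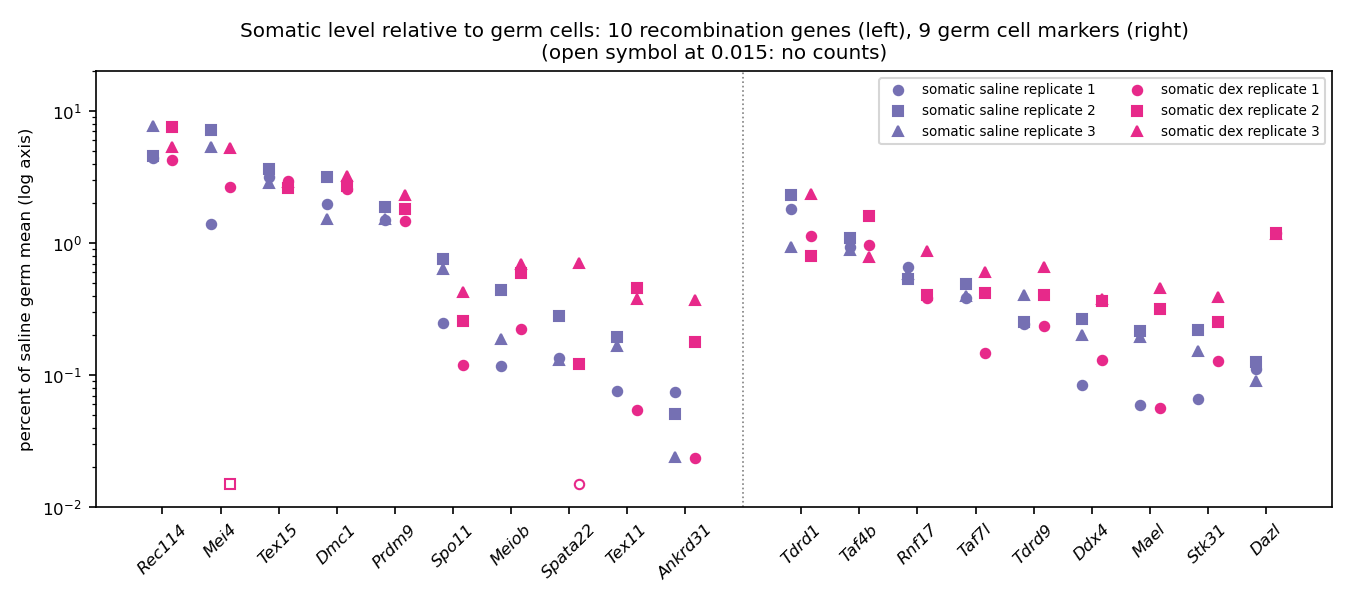
Level in each somatic library as a percentage of the saline germ mean (log axis), for the 10 genes (left) and the 9 germ cell markers with at least 100 CPM in germ cells (right); symbols are replicates and open symbols libraries with no counts. Rec114, Mei4, Tex15, Dmc1 and Prdm9 have means from 1.63% to 5.57% after saline, and the other 5 genes from 0.0494% to 0.547%.

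The dex and saline germ libraries were compared to ask whether the break and repair genes responded to the drug. None of the 10 genes was called by edgeR's quasi-likelihood test after BH adjustment, where 0.208% of 16857 genes tested were called. DESeq2 also called 0 of the 10. At an unadjusted p under 0.05 there were 3 of 10 (Prdm9 and Dmc1 higher, Meiob lower), against 11.6% of all genes, and the same 3 were those whose dex and saline libraries did not overlap, against 17.4% of all genes. The median log2 fold change was -0.06, against 0.01 over all genes tested, and the 10 values ran from -0.16 to 0.26.

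**Figure D4:**
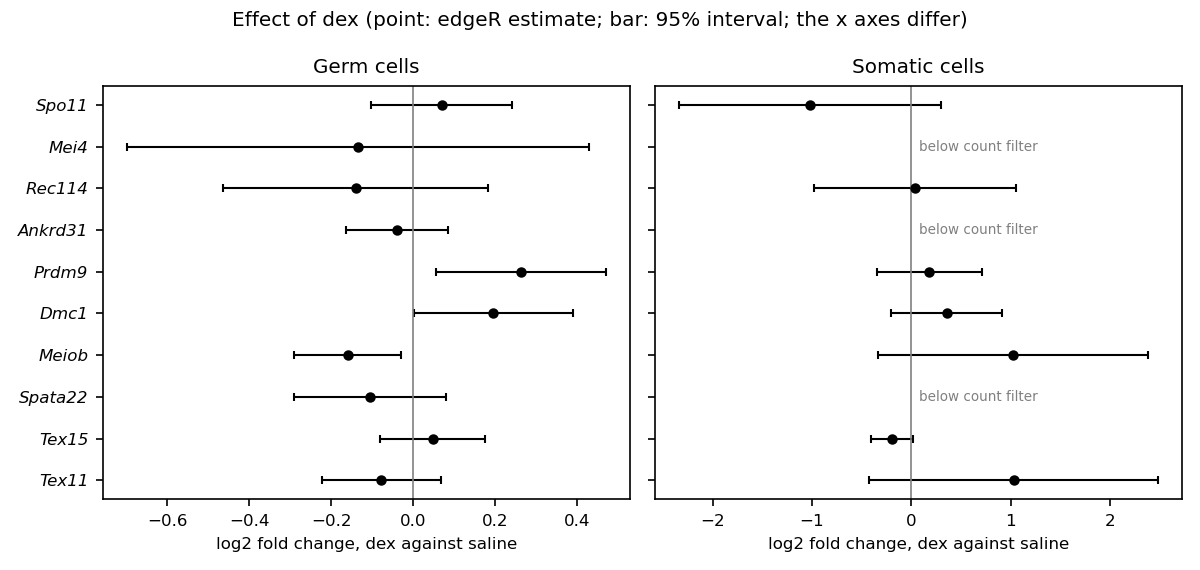
Log2 fold change of dex against saline for each gene in germ cells (left) and somatic cells (right), with 95% intervals from edgeR; the x axes differ, and 3 genes fell below the count filter in somatic cells. In germ cells the intervals of Prdm9, Dmc1 and Meiob exclude 0 before adjustment for the number of genes tested.

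Prdm9 was at 205, 267 and 269 CPM in saline and 281, 292 and 311 CPM in dex germ cells. Every dex library was above every saline library, and saline replicate 1 was well below the other saline libraries. The log2 fold change was 0.26 (95% interval 0.06 to 0.47, adjusted p = 0.325 by edgeR, range over the alternative settings 0.0406 to 0.609), or 20.02% higher with an interval of 3.97% to 38.5%. Without saline replicate 1 it was 0.14. Without the low-count filter, Prdm9 passed the threshold, at 0.26 (adjusted p = 0.0406 by edgeR).

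Dmc1 was at 188, 244 and 240 CPM in saline and 260, 248 and 258 CPM in dex germ cells. As for Prdm9, the groups did not overlap and saline replicate 1 was the lowest of the 6 libraries. The log2 fold change was 0.20 (95% interval 0.00 to 0.39, adjusted p = 0.426 by edgeR), and 0.08 without saline replicate 1. That library was also the lowest for Spo11, and it was the lowest of the 6 for 20.6% and the highest for 20.8% of all genes tested. The pregranulosa marker sum was 42.3, 69.2 and 84.7 CPM in the saline germ libraries and 32.3, 129 and 98.2 CPM after dex. Its part in the levels of the recombination genes was not tested.

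Meiob was at 158, 159 and 168 CPM in saline and 147, 138 and 146 CPM in dex germ cells. All 3 dex libraries were below all 3 saline libraries, with little spread within either group. The log2 fold change was -0.16 (95% interval -0.29 to -0.03, adjusted p = 0.339 by edgeR), and it lay between -0.19 and -0.13 when each library was left out in turn. Spata22, whose protein pairs with MEIOB, was at 100.3, 79.8 and 97.7 CPM in saline and 82.9, 83.7 and 90.1 CPM in dex. Its groups overlapped, since saline replicate 2 was the lowest of the 6. The log2 fold change of Spata22 was -0.11 (95% interval -0.29 to 0.08, adjusted p = 0.671 by edgeR).

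**Figure D5:**
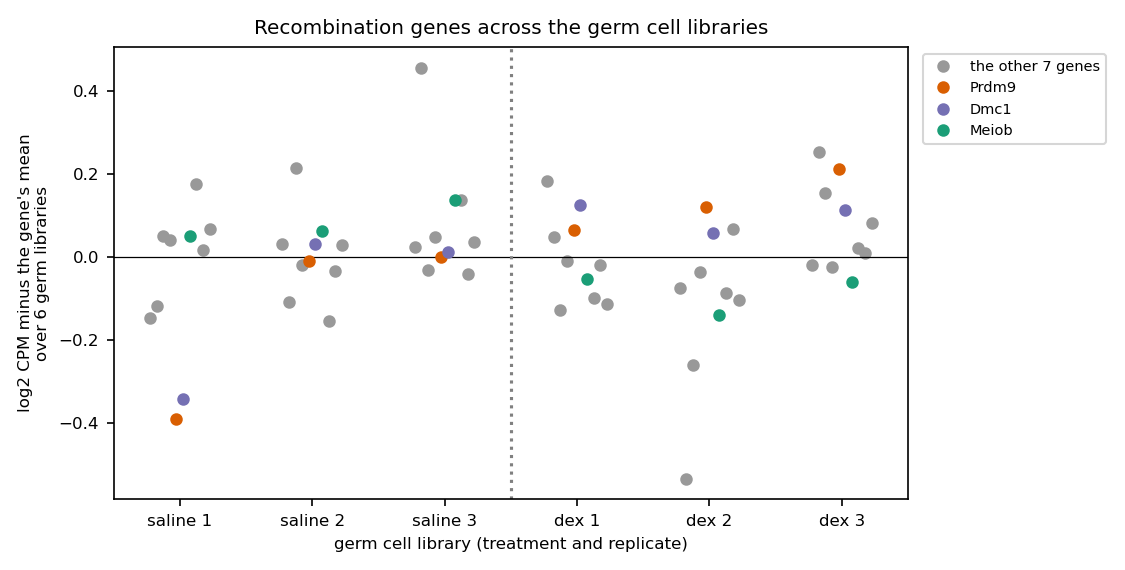
Log2 CPM of each gene in each germ cell library minus the gene's mean over the 6 germ libraries; Prdm9, Dmc1 and Meiob are coloured and the other 7 genes are grey. Prdm9 and Dmc1 are low in saline replicate 1 and above 0 in all 3 dex libraries, Meiob is below 0 in all 3 dex libraries, and the widest grey points belong to the low-count gene Mei4.

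The break formation genes showed no such separation. Spo11 was at 141, 159 and 158 CPM in saline and 177, 148 and 154 CPM in dex germ cells, with the lowest library in the saline group and the highest in the dex group. Its log2 fold change was 0.07 (95% interval -0.10 to 0.24, adjusted p = 0.773 by edgeR). Ankrd31 was at 258, 248 and 260 CPM in saline and 249, 245 and 247 CPM in dex. The 2 groups overlapped by a single dex library, and the log2 fold change was -0.04 (95% interval -0.16 to 0.09, adjusted p = 0.829 by edgeR). Mei4, with 45 to 101 counts per germ library, was the least precise. It was at 3.88, 3.91 and 5.77 CPM in saline and 4.35, 2.91 and 5.01 CPM in dex, and its interval of -0.70 to 0.43 around -0.14 covers changes of -38.4% to 34.6%. Rec114 was at 15.3, 17.1 and 14.46 CPM in saline and 13.52, 12.3 and 16.4 CPM in dex, with overlapping groups and a log2 fold change of -0.14 (95% interval -0.46 to 0.18).

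For Tex15, the highest of the genes, the germ libraries were at 1479, 1429 and 1421 CPM after saline and 1444, 1533 and 1473 CPM after dex. The groups overlapped, and the log2 fold change of 0.05 had an interval of -0.08 to 0.18, or -5.46% to 12.98%. Tex11 was at 337, 328 and 330 CPM after saline and 297, 299 and 340 CPM after dex. Dex replicates 1 and 2 were below all saline libraries while replicate 3 was the highest of the 6, and the log2 fold change was -0.08 (95% interval -0.22 to 0.07, adjusted p = 0.686 by edgeR). The narrowest intervals were thus those of Ankrd31, Tex15 and Meiob, and the widest those of Mei4 and Rec114.

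In somatic cells, 7 of the 10 genes passed the low-count filter (Spo11, Rec114, Prdm9, Dmc1, Meiob, Tex15 and Tex11). None of the 7 was called after dex by edgeR's quasi-likelihood test (8.18% of 16556 genes tested were called), none had an unadjusted p under 0.05 (20.9% of all genes), and DESeq2 called 0. None had groups without overlap, against 25.4% of all genes. Tex15 was the most precisely measured, at 45.8, 52.9 and 41.3 CPM after saline and 42.6, 37.8 and 42.2 CPM after dex. Its dex libraries lay in the lower part of the saline range or below it, and the log2 fold change was -0.20 (95% interval -0.41 to 0.01, adjusted p = 0.277 by edgeR). Prdm9 was at 3.71, 4.64 and 3.76 CPM after saline and 3.62, 4.45 and 5.71 CPM after dex, with a log2 fold change of 0.18 (95% interval -0.34 to 0.71). Dmc1 was at 4.40, 7.09 and 3.40 CPM after saline and 5.80, 6.03 and 7.25 CPM after dex, with a log2 fold change of 0.35 (95% interval -0.20 to 0.91). For both genes the groups overlapped.

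The remaining somatic values rested on few counts. Spo11 had 6, 18 and 16 counts after saline and 3, 7 and 11 after dex, a log2 fold change of -1.02 (95% interval -2.34 to 0.30). Meiob had 3, 11 and 5 counts after saline and 6, 17 and 19 after dex (1.02, interval -0.34 to 2.38), and Tex11 had 4, 10 and 9 and then 3, 27 and 21 (1.03, interval -0.43 to 2.48). In each of these genes dex replicate 1 was the lowest dex library and the groups overlapped. Rec114 had 11, 11 and 20 counts after saline and 11, 21 and 14 after dex, with a log2 fold change of 0.03. Of the genes below the filter, Ankrd31 had 3, 2 and 1 counts after saline and 1, 8 and 16 after dex, Spata22 had 2, 4 and 2 and then 0, 2 and 11, and Mei4 had 1, 5 and 4 and then 2, 0 and 4. The ratio of summed counts, dex over saline, was 3.90 for Ankrd31 (95% exact counting interval 1.56 to 11.6), with dex replicate 1 no higher than saline. It was 1.52 for Spata22 (0.585 to 4.24) and 0.562 for Mei4 (0.168 to 1.71), so no change of these 2 was detectable at this depth. The intervals cover counting error only and not the spread between libraries, which for Ankrd31 was 1 to 16 counts after dex. Ankrd31 had no somatic test in the main fit, so its ratio does not show a response to dex.

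The 13 germ cell markers summed to 27.0, 37.5 and 43.3 CPM in dex somatic replicates 1 to 3 and to 20.2 to 26.2 CPM in the saline somatic libraries. Dazl, a germ cell RNA-binding protein gene, was at 1.195, 1.35 and 0.971 CPM after saline and 12.9, 12.8 and 12.6 CPM after dex and was the 1 gene called of the 11 germ markers tested (8.18% of all genes were called). Without Dazl the sums overlapped, at 19.2 to 24.8 CPM after saline and 14.1, 24.7 and 30.7 CPM after dex, with no counts of Pou5f1 or Dppa3 in any dex library. The part of germ cell transcripts in the somatic values of Ankrd31, Spata22, Meiob and Tex11 was not tested.

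The difference of the dex effect, germ cells minus somatic cells, was tested over all 12 libraries, which it shares with the comparisons above. None of the 10 genes was called by edgeR's quasi-likelihood test (1.62% of 19390 genes tested were called) or by DESeq2, and 4 had an unadjusted p under 0.05, against 15.4% of all genes. These were Ankrd31 (-1.95, 95% interval -3.37 to -0.52, adjusted p = 0.179 by edgeR), Meiob (-1.20, interval -2.12 to -0.29), Tex11 (-1.13, interval -2.19 to -0.06) and Spo11 (1.07, interval 0.12 to 2.03). All 4 rest on the low somatic counts given above. Somatic dex replicate 1 decided the call for a pair of them. Its germ marker sum without Dazl was 14.1 CPM, against 24.7 and 30.7 CPM in somatic dex replicates 2 and 3. The part of germ cell transcripts in these calls was not tested. Without somatic dex replicate 1, Ankrd31 was at -2.44 (adjusted p = 0.0196 by edgeR) and Tex11 at -1.59 (adjusted p = 0.0218 by edgeR). Without the low-count filter Ankrd31 was also called, at -1.95 (adjusted p = 0.0325 by edgeR). For the genes with firmer somatic levels, the difference was 0.07 for Prdm9 (interval -0.39 to 0.52), -0.18 for Dmc1 (-0.68 to 0.33) and 0.23 for Tex15 (-0.01 to 0.48).

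A list of 44 other genes of the same pathway was read from the same fits. In saline, edgeR called 41 higher in germ cells, where 43.1% of all genes tested were called higher, and 3 lower, with a median log2 difference of 2.54. The largest differences were those of Shoc1 (10.04), Rnf212 (8.58), both of crossover formation, and Mei1 (8.43), a break formation gene. The genes that were lower in germ cells also work outside meiosis: Xrcc3, a DNA repair gene (-1.89), Rpa1, a subunit gene of the general single-strand binding complex (-0.46), and Mus81, a nuclease gene (-0.46). By step, 5 of 5 genes of break formation and placement, 6 of 6 of break processing, 17 of 19 of strand exchange and 13 of 14 of crossover formation were higher in germ cells.

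After dex, none of the 44 was called in germ cells by edgeR (6 at an unadjusted p under 0.05, against 11.6% of all genes) and none of the 40 tested in somatic cells (7 at an unadjusted p under 0.05, against 20.9% of all genes). DESeq2 called 1 in germ cells, Msh5 (with 158 of all 18367 genes tested called), and 0 in somatic cells (1477 of 16262). The groups did not overlap for 5 of the 44 in germ cells (2 higher, 3 lower, with 17.4% of all genes not overlapping) and 11 of the 40 in somatic cells (8 higher, 3 lower, with 25.4% of all genes). In the difference between cell types 1 of 44 was called, where 1.62% of all genes tested were called. This was Msh5, whose protein pairs with MSH4 to stabilise crossover intermediates. Msh5 was at 113, 144 and 153 CPM after saline and 176, 182 and 198 CPM after dex in germ cells. In somatic cells it was at 9.94, 11.99 and 9.77 CPM after saline and 6.71, 7.94 and 6.90 CPM after dex. In the same dex somatic libraries the summed macrophage markers were at 20.3% to 51.6% of the saline mean (4 of 5 called lower) and the erythroid markers at 31.9% to 160%, and their part in the Msh5 values was not tested. In neither cell type did the dex and saline libraries overlap, and they moved in opposite directions. The log2 fold change was 0.45 in germ cells (95% interval 0.23 to 0.66, adjusted p = 0.122 by edgeR) and -0.56 in somatic cells (-0.91 to -0.20, adjusted p = 0.0551 by edgeR). Their difference was 0.99 (95% interval 0.63 to 1.36, adjusted p = 0.00665 by edgeR), and the adjusted p was at most 0.0297 under every alternative setting. Saline replicate 1 was again the lowest germ library, and without it the germ value was 0.33 and the difference 0.88.

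Genes whose levels followed the 10 most closely were sought over the 12 libraries, by Pearson's r of log2 CPM with the mean standardised profile of the 10. The closest were Rad21l, a meiosis-specific cohesin subunit gene (r = 1.000), Mageb4, Fkbp6, Trap1 and Setd3, and 2071 of 16137 genes reached an r of at least 0.99. The libraries fall into 2 cell types that differ far more than the treatments do, so the measure reflects mainly the contrast of germ and somatic cells.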

How the data were processed

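RNA was measured by bulk RNA-seq of poly-A RNA, with random-hexamer priming and paired reads. For the authors, read pairs were aligned to mm10 with HISAT2 2.0.5 and deposited as raw counts per gene made with featureCounts 1.5.0-p3; the annotation version, the strand setting and the handling of multi-mapped reads are not given in the sources used here. The deposited FPKM values were computed by the authors from these counts with the length of each gene and the depth. The authors' own comparison tables (DESeq2 1.20.0, with fold changes, p-values and scaled counts) were not used.

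Counts were tested with edgeR 4.0.16 (R 4.3.3): TMM scaling, filterByExpr, quasi-likelihood test without covariate, two-sided, Benjamini-Hochberg (BH) adjustment over all genes tested, called at an adjusted p of at most 0.05. Tests within a cell type used its 6 libraries, the germ against somatic test the 6 saline libraries, and the difference of effects all 12. Standard errors and intervals were derived from the quasi-likelihood F statistic. DESeq2 1.42.0, other scaling, no filter, each library left out and a replicate block were alternatives. Replicates are pools of separate litters. Whether same-numbered germ and somatic libraries were sorted from the same pool is not given in the sources used here. The main tests do not pair them. The replicate block does so in the germ against somatic test and in the difference of effects. Within a cell type the block joins same-numbered dex and saline libraries, which are pools of separate litters. Depth per library was 14658503 to 18245507 counts, and precision for low somatic genes is set by counting. Named were all 10 genes, pathway genes called in a dex comparison or in the difference (at most 5 for each), the 3 highest and 3 lowest pathway genes between cell types, the 5 most alike genes and fixed marker genes. Other genes were named after their values were seen, as were Shoc1 and Mlh3 in the alternatives. The 10 genes and all lists were chosen with earlier results of these data known. Coordinates are as deposited (GRCm38), overlaps were taken from GENCODE gene models of that build, and the deposited gene model of Meiob differs from those models.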

Additional observations from a re-analysis of the deposited data

Results flagged for a closer look

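The effect of dex on Msh5, a crossover gene of the wider pathway, differed between the cell types. The log2 difference, germ cells minus somatic cells, was 0.99 (SE 0.17, edgeR BH-adjusted p = 0.00665). All 3 dex germ libraries were above all 3 saline germ libraries, and all 3 dex somatic libraries were below all 3 saline somatic libraries. In the germ libraries it rested on 1748 to 3391 counts each and in the somatic libraries on 111 to 186. No exonic bases are shared with another gene in the annotation used. The difference was called for none of the 10 recombination genes and for 1 of the 44 pathway genes, where 1.62% of all genes tested were called. Groups of 3 libraries were not tested for outliers.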

How the results depend on the processing

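All 10 genes stayed higher in germ cells under every alternative run, and none was called after dex in somatic cells under any. In germ cells 1 of the 10 was called without the low-count filter (Prdm9) and 0 under the others. In the difference between cell types 1 was called without the filter (Ankrd31), and 0 to 2 with 1 library left out. Of the 44 pathway genes, 1 was called in germ cells by DESeq2, 1 without the filter and 1 with a replicate block, each time Msh5. In somatic cells 2 were called without the filter (Msh5 and Shoc1), 1 with the block and 1 with all 12 libraries in the fit. In the difference there were 2 by DESeq2 (Msh5 and Mlh3), 3 without the filter (with Shoc1) and 1 to 2 with a library left out. Over all genes, the 35 calls in germ cells became 158 with DESeq2, 420 without the filter, 64 with all 12 libraries and 17 to 81 with a library left out. The 1354 in somatic cells became 803 with all 12 libraries and 754 to 1881 with a library left out, and the 314 differences 620 with DESeq2, 727 without the filter and 143 to 384 with a library left out. The cause of these shifts was not tested. Same-numbered dex and saline libraries deviated together only in part (r = 0.22, 0.00 and 0.08 in germ cells, 0.13, -0.02 and 0.06 in somatic cells), so the numbers were not taken as pairs. With the replicate block there were 49 calls in germ cells, 1520 in somatic cells, 222 differences and 15283 genes between cell types, and the counts for the 10 genes remained at 0, 0, 0 and 10. Germ and somatic libraries of 1 treatment each correlated best with their own number (r = 0.08 to 0.15). Leaving out 1 library in turn changed the sign of small log2 values, which ran from -0.020 to 0.12 for Spo11 and -0.31 to 0.079 for Mei4 in germ cells and from -0.24 to 0.34 for Rec114 in somatic cells. In the difference they ran from -0.49 to 0.090 for Rec114, -0.060 to 0.26 for Prdm9, -0.51 to 0.047 for Dmc1 and -1.24 to 1.31 for Spata22. The germ marker level of saline somatic libraries was 0.510% without Dazl, a setting chosen after seeing the data. Depth limits the somatic values of Mei4, Ankrd31, Spata22, Spo11, Rec114, Meiob and Tex11, which rest on 0 to 27 counts per library.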
